A study of Mus musculus with 22 samples.

Results

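Heterotrimeric G protein subunits and RGS proteins were examined in whole brains of inbred mice. The genes were those whose single symbol in the platform annotation named an alpha (Gna), beta (Gnb) or gamma (Gng) subunit, or was Rgs followed by digits. Rgs8 and Rgs16 were left out by that rule, and so was Gnb1l, which carries the prefix but encodes no subunit. This gave 52 of the 22251 annotated genes with values, 33 for subunits and 19 for RGS proteins, read by 731 probesets. Naive adult male DBA/2J (D2) mice, 12 in number, were compared with 10 naive adult male C57BL/6J (B6) mice. Each array (Affymetrix Mouse Exon 1.0 ST, with probesets along the exons of each gene) held whole-brain total RNA of 1 mouse. Both are inbred strains, and the labels give no age. Samples read on another scanner were left out by the authors, per the labels. Every array is a separate mouse, and the spread behind each test is that among mice. The series title names alternative splicing between these strains as its subject.

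A heterotrimeric G protein passes the signal of a membrane receptor into the cell. The activated receptor makes the alpha subunit exchange GDP for GTP, and alpha and the beta-gamma dimer then act on separate targets such as adenylyl cyclase, phospholipase C beta and potassium channels. RGS proteins speed up the GTPase of the alpha subunit and so end the signal. In brain they set how strongly and how long dopamine, opioid, muscarinic and other receptors signal.

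Values are log2 intensities made by the authors with RMA, so a difference of 1 is a doubling. Per array, the kept probesets of a gene were summarised by their median (the gene value). A probeset was kept where its mean over the 22 arrays reached the median of all probeset means, 1.44. Of the 52 genes, 46 had at least 3 kept probesets and were tested (31 subunits and 15 RGS genes, 591 probesets). The medians over all probesets ranged from 1.45 to 1.51 on D2 arrays and from 1.41 to 1.47 on B6 arrays. The neuronal markers Snap25 and Syt1 averaged 10.01 and 9.55 in D2 and 10.12 and 9.58 in B6. Larger differences were found for Map2 (-0.38), Nefl (-0.36) and Tubb3 (-0.19), and the median of the neuronal list was -0.19. Among 5 measured neuronal markers Map2 fell in D2, as did 3 of 5 ependyma and choroid plexus, 2 of 5 endothelial, 2 of 5 oligodendrocyte, 2 of 7 cerebellar neuron, 1 of 8 microglia and 2 of 3 red blood cell markers. Of 6 astrocyte markers 2 fell and 1 rose. The mean of the ependyma and choroid plexus markers ran from 5.16 to 5.66 in D2 and from 5.67 to 6.01 in B6, without overlap. The part of these cells in the gene differences was not tested. Among the red blood cell markers Hbb-b1 was at -4.12, Alas2 at -0.90 and Slc4a1 at 0.013. Whole brain mixes cell types, so fewer cells of a type and less RNA per cell cannot be told apart. Strain sequence differences under the probes of a marker were not tested either.

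None of the 46 genes was called different between D2 and B6 (limma, Benjamini-Hochberg over the 16016 genes tested, adjusted p under 0.05), whereas 10.8% of all genes tested were (2.57% higher and 8.26% lower in D2). The smallest adjusted p of the 46 was 0.0877, for Gngt2. Rgs8 and Rgs16, both called lower in D2 in the same fit, had been left out with that known. The count of 0 and its contrast with all genes are therefore partly set by that choice. At an unadjusted p under 0.05 there were 8 genes, 17.4% of the 46, all lower in D2. The background was 25.3% of all genes in either direction and 17.9% lower in D2. No gene had D2 and B6 values without overlap, which 1.18% of all genes had. The difference was below 0 for 29 of the 46 genes (63.0%) and for 61.9% of all genes. Its median was -0.054 over the 46 and -0.053 over all genes, and its median size was 0.12 and 0.13.

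The 95% intervals show how large a difference could have been missed. All 46 lay within 1 of 0, between -0.65 and 0.55, and 40 lay within 0.5. A doubling or halving of the measured gene value was therefore outside the interval of every tested gene. For dim genes this does not exclude such a change in RNA, since background can shrink the measured difference. The D2 mean was under 3 for 9 of the 46 genes, among them Gna15 (1.72) and Gng11 (1.76), against a filter level of 1.44. Of all genes tested, 4.23% differed by 0.5 or more, and of the 46 genes, which leave out Rgs16 (-0.90), 0 did. Smaller differences are another matter, since a p above the threshold does not show that the strains are alike.

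**Figure D1:**
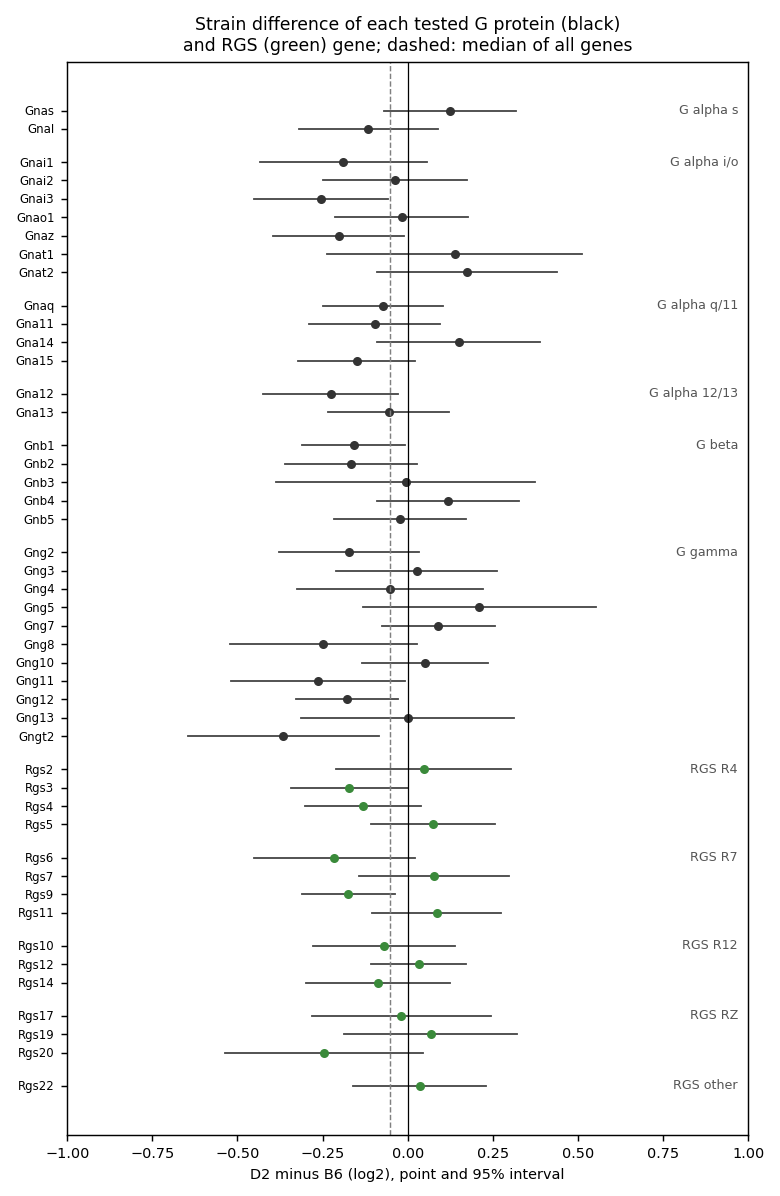
Each point is the difference D2 minus B6 (log2, horizontal axis) of 1 tested gene, with its 95% interval from limma (n = 12 D2 and 10 B6 mice), in black for G protein subunits and in green for RGS genes. The dashed line is the median of all genes (-0.053). All points lie between -0.37 and 0.21, and 8 intervals do not reach 0.

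Among the stimulatory alpha subunits, Gnas encodes the widely used activator of adenylyl cyclase, from an imprinted locus that makes several transcripts. Its gene value averaged 5.49 ± 0.24 in D2 and 5.37 ± 0.18 in B6 (SD, n = 12 and 10, as for all values by strain), a difference of 0.12 with an interval of -0.071 to 0.32 over 49 kept probesets. Gnal encodes Golf, the stimulatory subunit of the striatum and of olfactory neurons. It averaged 6.53 ± 0.26 in D2 and 6.64 ± 0.19 in B6, a difference of -0.12 (-0.32 to 0.089). The strains overlapped for both genes, and both intervals included 0.

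The inhibitory and related alpha subunits included one of the smallest p-values. Gnai3, an inhibitor of adenylyl cyclase, ranged in D2 from 5.59 over a median of 5.86 to 6.13, against 5.74, 6.10 and 6.63 in B6. The 3 highest B6 mice stood above all D2 mice, and the 3 lowest D2 mice below all B6 mice. Its difference was -0.25 ± 0.095 (SE, limma adjusted p = 0.0888). In the 18 arrays with file letter A, described below, it was -0.14, and in the 4 with letter B it was -0.73. Gnaz, whose product turns over GTP slowly, averaged 6.00 ± 0.24 in D2 and 6.20 ± 0.17 in B6, a difference of -0.20 with adjusted p = 0.173.

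The other members of that family lay closer together. Gnai1 differed by -0.19 (interval -0.43 to 0.056) and Gnai2 by -0.037 (-0.25 to 0.17). Gnao1, which encodes Go, the abundant alpha subunit of neurons, averaged 8.41 ± 0.21 in D2 and 8.43 ± 0.22 in B6. This difference of -0.018 had an interval of -0.21 to 0.18. The transducin genes of rods and cones, Gnat1 (0.14) and Gnat2 (0.17), rested on 3 and 6 probesets, at gene values of 3.00 and 2.34 in D2 and 2.86 and 2.17 in B6.

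The alpha subunits that activate phospholipase C beta are encoded by Gnaq and Gna11 in most tissues. Gnaq averaged 7.50 ± 0.20 in D2 and 7.57 ± 0.18 in B6, and Gna11 averaged 7.51 ± 0.25 in D2 and 7.61 ± 0.17 in B6. Neither difference (-0.072 and -0.097) was larger than the spread between mice. Gna14 (0.15) and the blood cell subunit gene Gna15 (-0.15) were dim, at 2.19 and 1.72 in D2 and 2.04 and 1.87 in B6. Gna12 and Gna13 encode the subunits that act on the actin cytoskeleton. Gna12 had D2 values of 5.66 to 6.20 with a median of 6.09, against B6 values of 5.89 to 6.62 with a median of 6.17. The 4 highest B6 mice exceeded every D2 mouse, and 2 of them were those with file letter B. The Gna12 difference was -0.23 ± 0.096 (SE, limma adjusted p = 0.137), and that of Gna13 was -0.056. On letter A arrays alone Gna12 differed by -0.12, and on letter B arrays alone by -0.66.

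Beta subunits form a tight dimer with gamma subunits. Gnb1, a main beta subunit of brain, ranged from 9.95 to 10.35 in D2 (median 10.08) and from 9.98 to 10.50 in B6 (median 10.29). Its difference was -0.16 ± 0.074 (SE, limma adjusted p = 0.175), and 13 of its 14 probesets were lower in D2. On letter B arrays alone the Gnb1 difference was 0.026. Gnb2 differed by -0.17 (-0.36 to 0.026) and Gnb4 by 0.12 (-0.090 to 0.33). Gnb5, the beta subunit that binds RGS proteins of the R7 family in place of a gamma subunit, averaged 8.37 ± 0.21 in D2 and 8.39 ± 0.23 in B6. Gnb3, known from cone photoreceptors, was dim and varied most between mice, with a difference of -0.0063 (-0.39 to 0.37).

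Gamma subunits anchor the dimer in the membrane through a lipid group. Gngt2, the cone gamma subunit gene, had the largest difference of all 46 genes and the lowest p. Its D2 values ran from 1.95 over a median of 2.51 to 3.48, against 2.58, 2.89 and 3.48 in B6. In D2, 6 of 12 mice lay below the lowest B6 mouse, and 1 D2 mouse, replicate 20, lay level with the highest B6 mouse. The difference was -0.37 ± 0.14 (SE, limma adjusted p = 0.0877) over 5 probesets, of which 3 were lower and 2 higher in D2. The difference was -0.0084 with the mean over probesets and 0.046 without a filter. Of 4 measured retinal markers 1 rose in D2 (Pde6a) and the list median was 0.14.

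Gng12 had all 7 probesets lower in D2, with differences from -0.60 to -0.0041. Its gene value ranged from 6.59 to 7.14 in D2 (median 6.84) and from 6.81 to 7.25 in B6 (median 6.99), a difference of -0.18 ± 0.073 (SE, limma adjusted p = 0.118). With the mean over probesets in place of the median it was called (-0.22, adjusted p = 0.0134). Gng11, found in vessels and other tissues, was the third gamma subunit gene with an interval below 0 (-0.52 to -0.0094), at 1.76 ± 0.34 in D2 and 2.02 ± 0.26 in B6 over 3 probesets, of which 1 was lower in D2. With the mean over probesets the Gng11 difference was -0.071. Of 5 measured endothelial markers 2 fell (Pecam1 and Slco1a4), and their mean per mouse ran from 4.26 to 4.76 in D2 and from 4.56 to 5.03 in B6. The part of vessel cells in the Gng11 value was not tested. Gng2 had all 7 probesets lower in D2 too, with a gene difference of -0.17 (-0.38 to 0.032). So had the alpha subunit gene Gna11 all 9, at a gene difference of only -0.097 (-0.29 to 0.096). The probesets of a gene are read in the same mice, so such counts are not independent evidence.

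The remaining gamma subunit genes showed no common direction. Gng3, a neuronal gamma subunit gene, averaged 8.17 ± 0.27 in D2 and 8.14 ± 0.28 in B6. Gng7, which pairs with Golf in the striatum, averaged 7.15 ± 0.15 in D2 and 7.06 ± 0.19 in B6, a difference of 0.090 (-0.075 to 0.26). Gng4 (-0.052), Gng5 (0.21), Gng8 (-0.25) and Gng10 (0.051) had intervals that included 0, and the widest ran from -0.13 to 0.55 for Gng5. Gng13, known from taste cells and other sensory cells, averaged 5.05 ± 0.45 in D2 and 5.05 ± 0.27 in B6. One D2 mouse, replicate 13, lay at 3.66 for this gene, far below the D2 median of 5.19.

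Most RGS genes of the R4 family encode small proteins with little beyond the RGS domain. Rgs4, abundant in cortex and striatum, ranged from 8.45 to 9.03 in D2 (median 8.79) and from 8.69 to 9.09 in B6 (median 8.92). All 7 of its probesets were lower in D2, and the gene difference was -0.13 (-0.30 to 0.038). Rgs2, an inhibitor of Gq signalling that neurons induce with activity, differed by 0.047 (-0.21 to 0.30). Rgs5, a gene of pericytes, averaged 7.00 ± 0.25 in D2 and 6.92 ± 0.11 in B6. Its difference was 0.074, with an interval that included 0 (-0.11 to 0.26). Of 7 pericyte and smooth muscle markers 1, Acta2, fell (-0.70). The median of that list was -0.077, against -0.053 over all genes. Rgs3, read by 50 kept probesets, differed by -0.17 with an upper bound of 9.9e-05.

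The R7 family (Rgs6, Rgs7, Rgs9 and Rgs11) works as a complex with Gnb5. Rgs9 is the striatal and photoreceptor member. Its gene value lay between 5.78 and 6.16 in D2 (median 6.01) and between 5.98 and 6.40 in B6 (median 6.16), so that 4 D2 mice were below all B6 mice and 5 B6 mice above all D2 mice. With the smallest spread of the 46 genes (SD within strains 0.12), the difference of -0.17 ± 0.066 (SE) had a limma adjusted p of 0.0937, and 24 of 32 probesets were lower in D2. Among 6 measured markers of striatal neurons, Drd2 fell (-0.25) and 5 were not called (list median -0.20). Of these, Drd1 was at 0.036, Ppp1r1b at -0.059, Pde10a at -0.18, Penk at -0.22 and Tac1 at -0.23. The mean of the 6 striatal markers per mouse ran from 6.26 to 6.74 in D2 and from 6.53 to 6.84 in B6. The part of striatal cells in the Rgs9 value was not tested. Rgs6 differed by -0.22 (-0.45 to 0.020), Rgs7 by 0.078 (-0.14 to 0.30) and Rgs11 by 0.085 (-0.10 to 0.27).

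In the R12 family, Rgs12 and Rgs14 carry further domains that bind other signalling proteins. Rgs10 of microglia and neurons (-0.069), Rgs12 (0.033) and Rgs14 (-0.086), which is known from hippocampal area CA2, all had intervals within 0.30 of 0. In the RZ family, Rgs17 differed by -0.018 and Rgs19 by 0.068. Rgs20 averaged 3.87 ± 0.40 in D2 and 4.11 ± 0.29 in B6, a difference of -0.25 ± 0.14 (SE, limma adjusted p = 0.284). It fell with the mean over probesets (-0.29, adjusted p = 0.00417) and with the filter at the 75th percentile (-0.39, adjusted p = 0.0388), but was at -0.073 with the array median as covariate and at 0.056 on the letter B arrays alone. Rgs22 (0.035) is known mainly from testis.

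**Figure D2:**
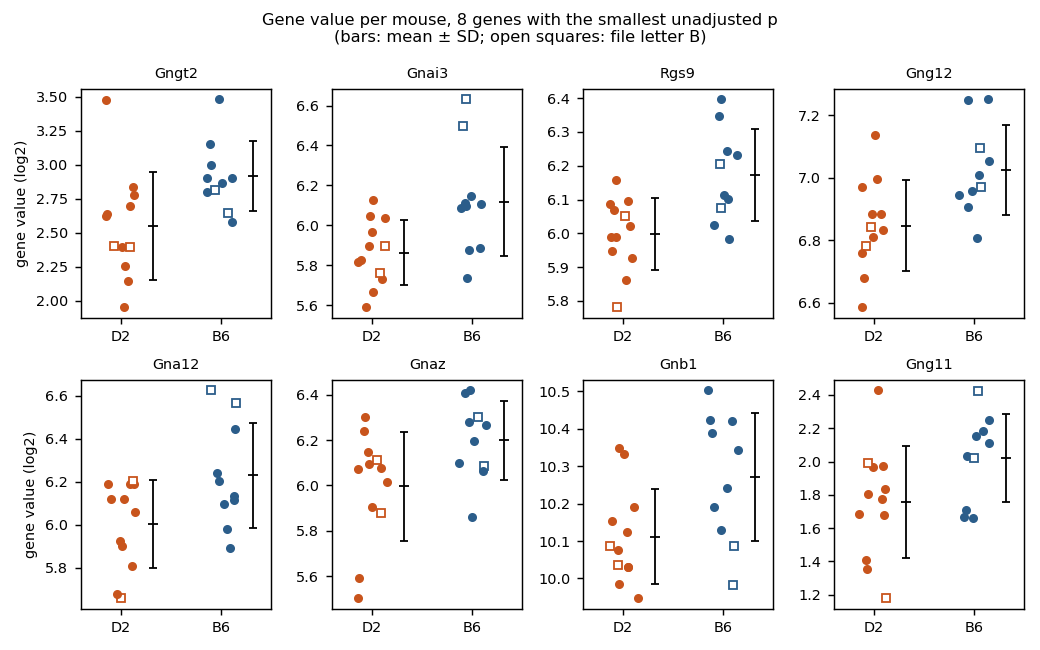
Gene value (log2, vertical axis) of every mouse for the 8 genes with an unadjusted p under 0.05, D2 left and B6 right, with mean ± SD (n = 12 and 10). Open squares are the 4 arrays with file letter B. The strains overlap in all 8 genes. The axes differ between panels and do not start at 0.

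The remaining 6 genes had fewer than 3 kept probesets and were not tested in the same way. Gnat3, the taste transducin gene, Gngt1 of rods, Rgs13 of B cells and mast cells and Rgs21 of taste cells had no probeset above the filter, and Rgs1 and Rgs18, known from lymphocytes and platelets, had 1 each, of 14 and 10. Over all their probesets the gene values averaged from 0.059 to 0.23 in D2 and from 0.0050 to 0.28 in B6, below the filter level of 1.44. The tested genes at the limit of 3 kept probesets were Gng11, of 4, and Gnat1, of 10.

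At the level of single probesets, 11 of the 593 kept probesets of these genes were called (1.85%), 5 higher and 6 lower in D2, against 3.91% of all kept probesets and 4.07% of those of tested genes. They belonged to 7 genes. In Gnai3 the called probeset, number 5137767, was lower in D2 (-0.44) along with 8 of the 10 others. In Gng8, an olfactory gamma subunit gene, 1 of 4 probesets fell (-0.84), and in Rgs19 1 of 11 (-0.45). The Gng8 probeset was dim, with a D2 mean of 1.44, at the filter level, so the size of its fall is limited by the background. In Gnas 1 of 49 rose (0.43) and in Rgs11 1 of 27 (0.60). Rgs3 had 1 higher and 1 lower, and Rgs7 had 2 of each. With the array median as covariate, 10 of these 11 probesets lost their call, and Rgs7 probeset 5195516 did not (-1.25, adjusted p = 0.0432). The array median itself ran higher in D2 (1.45 to 1.51) than in B6 (1.41 to 1.47). Strain and this covariate are thus partly confounded, and lost calls do not show that a difference came from the arrays. The share of all probesets called in that fit is not given here.

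**Figure D3:**
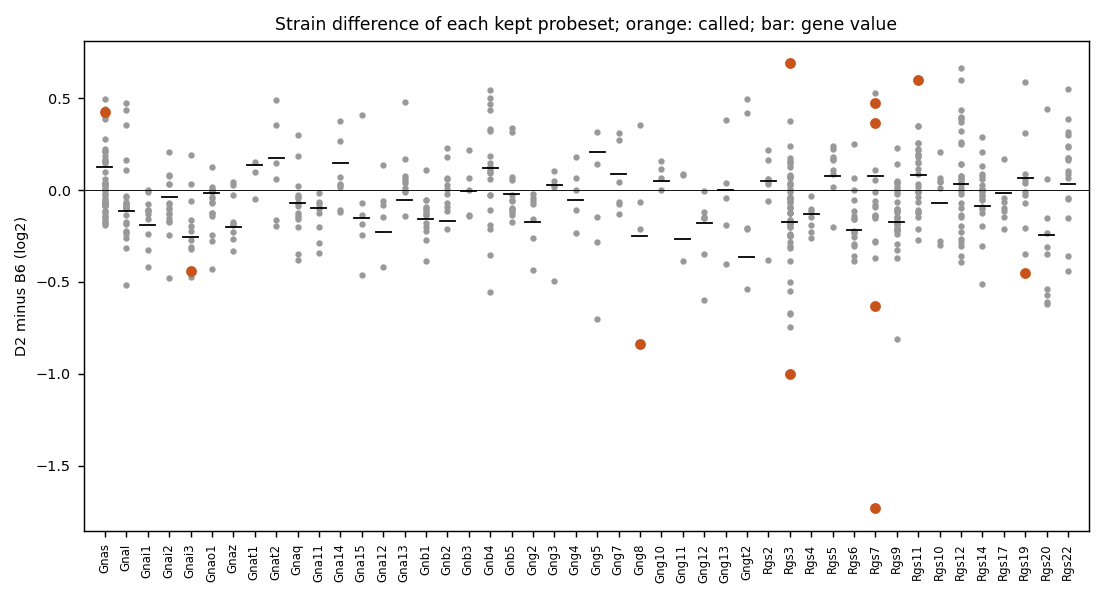
Difference D2 minus B6 (log2, vertical axis) of every kept probeset of the 46 tested genes (horizontal axis), with the 11 called probesets in orange and the gene value as a bar. Most points lie within 0.5 of 0, and the lowest, at -1.73, belongs to Rgs7.

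Rgs7 was the gene in which probesets differed most from one another. Probeset 5195516 had D2 levels of 0.59 to 2.64 with a median of 1.17, against B6 levels of 2.25 to 4.03 with a median of 2.82. All but 1 of the D2 mice lay below the lowest B6 mouse. The level differed by -1.73 ± 0.23 (SE, limma adjusted p = 1.53e-05). The D2 mean of 1.29 was below the filter level, so the size of the fall is limited by the background. The probeset passed the filter only through its B6 levels. Probeset 4706170 went the other way, at 8.76 to 9.17 in D2 (median 8.86) and 8.03 to 8.82 in B6 (median 8.39), with 10 of 12 D2 mice above all B6 mice. This difference was 0.47 ± 0.10 (SE, adjusted p = 0.00581). Probeset 4563169 rose by 0.36 (adjusted p = 0.0404) and 4468362 fell by 0.63 (adjusted p = 0.0365). The other 14 probesets of Rgs7 lay between -0.37 and 0.53, and 11 of them were below 0. Where along the gene each probeset lies is not used here.

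The splicing index, the log2 level of a probeset relative to the gene value of that mouse, was called where the adjusted p was under 0.05 and the strains differed by at least 0.5. This was the case for 4 of 591 probesets (0.677%), against 1.66% of all probesets tested, and for 3 of 46 genes (6.52%), against 13.9% of all genes. Among them, Rgs7 probeset 5195516, Rgs3 probeset 4762976 and Gngt2 probeset 4500882 passed the filter only through the strain where they were higher. Their calls therefore depend on that filter, and the share of all index calls made in this way is not given here. The Rgs7 probeset 5195516 had an index difference of -1.81 ± 0.22 (SE, limma adjusted p = 8.83e-06). As with the level, the size of this difference is limited by the background in D2. The call was also made under all 6 alternatives that could be applied to it, each of which rests on the same dim D2 values. In Rgs3, probeset 4762976 had an index 0.86 higher in D2 (adjusted p = 0.00106), at levels of 1.98 ± 0.41 in D2 and 1.29 ± 0.31 in B6, the B6 mean being below the filter level. Rgs3 probeset 4768258 lay in D2 from 1.22 to 2.94 and in B6 from 2.12 to 3.43. Its level fell by 1.00 (adjusted p = 0.00354), while its index difference of -0.83 was not called (adjusted p = 0.0554). That index was called with the mean over probesets, with the file letter as block and without D2 replicates 13, 14 and 19.

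In Gngt2 both index calls were higher in D2. Probesets 4500882 and 5073017 had index differences of 0.86 and 0.78 (adjusted p = 0.0319 and 0.0467). The first was dim, at 1.88 ± 0.50 in D2 and 1.39 ± 0.38 in B6, and its B6 mean was below the filter level, so the size of its difference is limited by the background. Their own levels, higher in D2 by 0.49 and 0.42, were not called (adjusted p = 0.159 and 0.232). Both index calls were lost with the mean over probesets, on the letter A arrays alone and without D2 replicates 13, 14 and 19.

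**Figure D4:**
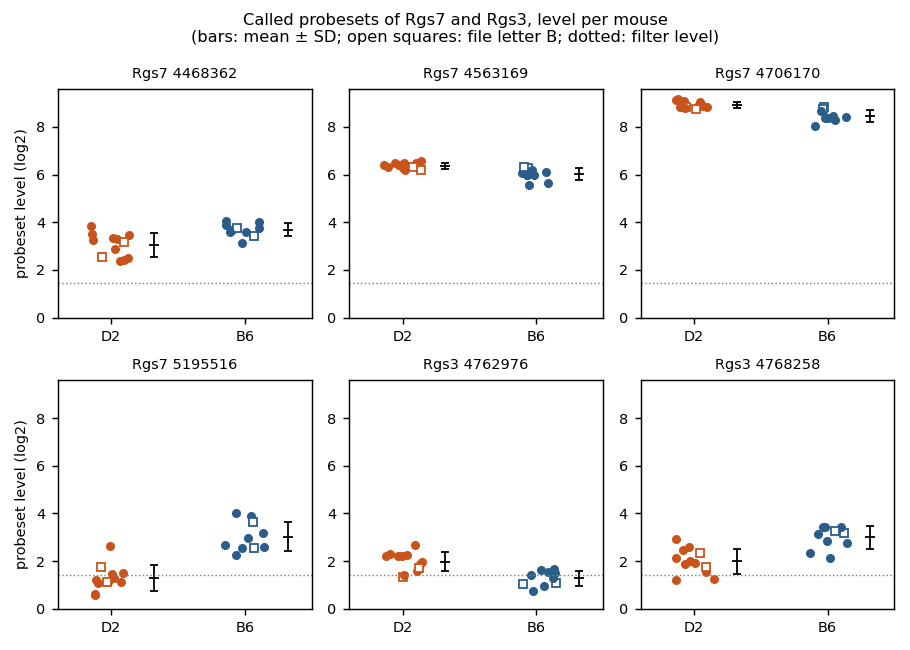
Level (log2, vertical axis) of the 4 called probesets of Rgs7 and the 2 of Rgs3 in every mouse, D2 left and B6 right, with mean ± SD (n = 12 and 10), open squares for file letter B and the filter level of 1.44 dotted. Rgs7 5195516 and Rgs3 4768258 are lower in D2, and Rgs7 4706170 and Rgs3 4762976 are higher.

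Mice of the same strain differed too. The SD within strains ran from 0.12 (Rgs9), 0.13 (Rgs12) and 0.14 (Gng12) to 0.42 (Gng5), 0.47 (Gnat1) and 0.47 (Gnb3), with a median of 0.23, against 0.25 over all genes. The 3 most variable genes had 3 to 5 probesets, and the 2 least variable had 32 each. The low values were not spread evenly over mice. D2 replicate 13 held the lowest D2 value in 18 of the 46 genes (39.1%), against 23.0% of all genes, and in 0 the highest. In B6, replicate 11 was the lowest in 11 genes (23.9%, against 20.6% of all genes) and replicate 12 the highest in 10 (21.7%, against 13.2%).

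The description label of each array holds a file name with the letter A or B, and 2 mice of each strain have letter B, D2 replicate 13 among them. With strain in the fit, 7 of the 46 genes differed by letter (15.2%, against 14.8% of all genes). Gnai2 averaged 7.26 ± 0.27 on letter B arrays and 7.72 ± 0.13 on letter A arrays (SD, n = 4 and 18; limma adjusted p = 0.00266). Gnb2 (-0.37), Rgs14 (-0.35), Rgs3 (-0.29) and Gng7 (-0.26) were lower on letter B arrays too. Gng13 was lower by 0.56, with a spread on letter B arrays of 3.66 to 5.05. Gnaq was the one higher on letter B arrays, by 0.31. Without D2 replicate 13, 1 of the 46 genes differed by letter, against 7.39% of all genes. This was Gnai2 (-0.33, adjusted p = 0.0385), while Gnb2 was at -0.24 and Gng13 at -0.23 (adjusted p = 0.127 and 0.292). With the letter as block, on letter A arrays alone and on letter B arrays alone, 0 genes were called between the strains by limma, with 11, 4 and 5 at an unadjusted p under 0.05 (23.9%, 8.70% and 10.9%, against 28.0%, 22.9% and 12.9% of all genes). The letter B arrays are 2 against 2 mice, so a count of 0 there says little.

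Small differences changed sign with the scale and with the mice used. After the gene median of every array was subtracted, the median of the 46 genes was 0.045 and that of all genes 0.046. With the array median as covariate, which itself ran higher in D2, the medians were 0.032 and 0.025. Without D2 replicates 13, 14 and 19, which correlated least with their strain in earlier results of these data, the medians were 0.0070 and -0.025. Only D2 mice were left out there. Replicates 13, 14 and 19 held the lowest D2 value in 23.0%, 9.65% and 20.0% of all genes, so that choice by itself can raise D2 means. The sign was the same in all 11 alternatives, or all that could be applied, for 14 genes. Of these, 10 were lower in D2, among them Gnai3, Gna12, Gnaz, Rgs9 and Gng12, and 4 were higher (Gnas, Gnb4, Gng10 and Rgs12). The alternatives reuse the same mice, so they are not independent evidence. The share of all genes with an unchanged sign is not given here, so these counts have no background beside them. Some unchanged signs rest on very small differences, with Gnas down to 0.0010, Gnb4 down to 0.0053 and Gng2 up to -0.0058. Gnai3, in contrast, stayed at or below -0.13.

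**Figure D5:**
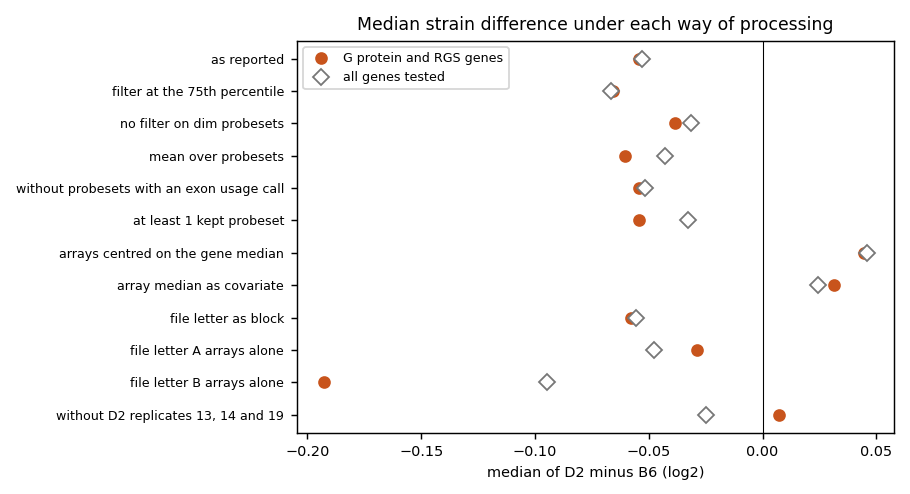
Median of D2 minus B6 (log2, horizontal axis) over the tested G protein and RGS genes (orange) and over all genes tested (open diamonds) under each way of processing (rows). The medians of the 2 sets differ most on the 4 letter B arrays (-0.19 and -0.095).

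Of 46 other genes of the pathway, listed with earlier results of these data known, 43 were measured, and 3 fell and 0 rose in D2 (6.98%, against 10.8% of all genes). Among the direct targets, Plcb1 and Plcb3, phospholipases that Gq and beta-gamma activate, fell by 0.26 ± 0.067 (SE, limma adjusted p = 0.0114) and 0.29 ± 0.081 (adjusted p = 0.0206). Plcb2 (0.081) and Plcb4 (-0.14) were not called. Of 9 adenylyl cyclases, Adcy4 fell by 0.35 ± 0.089 (adjusted p = 0.0109), at 2.57 in D2 and 2.93 in B6, while the striatal Adcy5 was at -0.039 and Adcy1 at 0.025. Of 4 G protein gated potassium channels none was called (Kcnj5 at 0.26, Kcnj9 at 0.052, Kcnj6 at -0.086 and Kcnj3 at -0.19). After the gene median of every array was subtracted, Plcb1, Plcb3 and Adcy4 all lost their call (adjusted p = 0.103, 0.079 and 0.123). Without D2 replicates 13, 14 and 19, Plcb1 and Plcb3 lost theirs (adjusted p = 0.0563 and 0.0951) and Adcy4 did not. That setting leaves out D2 mice alone, and how much of the loss follows from this choice was not tested.

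Regulators outside the RGS genes were not called either. Of 7 measured receptor kinases and arrestins, Grk3 was lowest at -0.31 (adjusted p = 0.0722) and Arrb2 highest at 0.21. None of 7 chaperones and exchange modulators (Ric8a at 0.11, Gpsm2 at -0.14), 3 partners of the R7 family (Gpr158 at -0.14, Rgs7bp at 0.023), 3 exchange factors with an RGS homology domain (Arhgef11 at -0.20) or 6 other proteins with an RGS domain (Snx14 at -0.15) passed the test. The RGS genes that the rule left out, Rgs8 and Rgs16, fell in D2 and were left out with that known. Rgs16 averaged 4.49 ± 0.31 in D2 and 5.39 ± 0.32 in B6 (limma adjusted p = 1.6e-05), and Rgs8 averaged 6.67 ± 0.15 in D2 and 7.02 ± 0.24 in B6 (adjusted p = 0.0101).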

How the data were processed

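Whole-brain RNA of 12 D2 and 10 B6 mice was measured, 1 array a mouse. The authors deposited log2 values per probeset. Per the submitters' processing notes they used affy 1.12.2 under R 2.6.0, with RMA. RMA's options and the genome build are not given in the sources used here. Of 1201338 probesets, 10932 were empty and left out. Platform annotation gave 1 symbol to 311384, several to 6385 and none to 883569; of 22276 symbols, 17991 were current, 3990 were updated and 295 kept. Gene values and tests (limma 3.58.1, R 4.3.3) follow the report, over 16016 genes with at least 3 kept probesets and over 595203 kept probesets; the index was tested over 236114. Arrays have no read depth; their number limits the precision. Strain sequence differences under the probes were not tested. The genes and lists were chosen with earlier results of these data known. All tested genes are named. Pathway lists name up to 2 called genes each, and other pathway and marker genes were picked after their values were seen. The file letter test, its repeat without D2 replicate 13 and the alternatives for pathway genes were added after the data were seen.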

Additional observations from a re-analysis of the deposited data

How the results depend on the processing

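Among the 46 tested genes, 0 were called between D2 and B6 as reported. The count was 1 at the 75th percentile filter (Rgs20, of 38 genes left), 1 without a filter (Gnai3, -0.28, adjusted p = 0.0407, of 52 genes) and 2 with the mean over probesets (Rgs20 and Gng12), and 0 under the other 8 alternatives. The unadjusted p was under 0.05 (limma) for 26.3% of these genes at the 75th percentile, 13.5% without a filter and 19.6% with the mean. Of all genes, 27.6%, 21.5% and 30.9% did so under the same settings. The shares of all genes and probesets called under each alternative are not given here, so the counts have no background beside them. The cause of these changes was not tested. Counts with the array median as covariate are limited further, since that median is partly confounded with strain. In place of 11 called probesets there were 6 with the array median as covariate, of which 1 was among the 11, and 7 both on letter A arrays alone and without D2 replicates 13, 14 and 19, of which 6 were among the 11 in each case. In place of 4 exon usage calls there were 2 at the 75th percentile filter, both of other probesets since 0 of the 4 could be tested there. There were 2 on letter A arrays alone, both among the 4, 11 with the array median as covariate, which held all 4, and 1 with an index difference of at least 1 (Rgs7). In place of 3 called pathway genes there were 5 at the 75th percentile filter, 6 with the mean over probesets, 0 after subtraction of array gene medians, 1 with the array median as covariate, 0 on the 4 letter B arrays and 1 without D2 replicates 13, 14 and 19 (Adcy4). In place of 7 genes differing by file letter there was 1 without D2 replicate 13 (Gnai2). No paired analysis was possible because the strains share no replicate number.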
